A study of Homo sapiens with 6 samples.

Results

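Nascent transcription after 4 h of C1-14 was compared with that of vehicle in HCT116 cells, a line established from a human colorectal carcinoma. C1-14 is the compound the study used as an inactive analogue of C1-27, its inhibitor of glutathione S-transferase omega 1 (GSTO1), so the comparison asks which transcripts differ when the exposure is not tied to inhibition of that enzyme. Of the 6 cultures in the series, 3 entered the comparison, selected by their labels: 1 culture with C1-14 at 10 µM and 2 cultures with 0.01% DMSO, all treated for 4 h. Another culture, C1-27 at 1 µM for 4 h, is given beside them for some genes, and the remaining cultures were C1-27 at 1 µM for 24 h and GSTO1 siRNA at 10 nM for 24 h. All cultures received bromouridine for the last 0.5 h, and the labelled RNA was captured with an antibody and sequenced (Bru-seq), so a gene's reads come from RNA made within that window over exons and introns together. One library came from each culture, and C1-14 has no second culture. In such bulk samples, fewer cells carrying a transcript and less of it per cell cannot be told apart.

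The replication-dependent histone genes, which stood out in this comparison, supply the H1, H2A, H2B, H3 and H4 proteins that package newly copied DNA. They are short, lack introns, lie in clusters and end in a conserved stem-loop in place of a poly(A) tail, to which the stem-loop binding protein (SLBP) attaches. Replacement histones such as H2A.Z are instead made throughout the cell cycle from genes that mostly have introns and poly(A) tails. RNase P, whose RNA subunit is encoded by RPPH1, trims the 5′ ends of transfer RNA precursors.

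The stem-loops of 5 histone genes and of one replacement histone are shown because this element sets the replication-dependent genes apart from other transcripts. They were read from GENCODE v29 transcripts (GRCh38). The 16 bases that match the histone 3′ stem-loop consensus are in capitals, with up to 5 bases on each side.
HIST1H2AG: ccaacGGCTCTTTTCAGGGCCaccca
HIST1H2AI: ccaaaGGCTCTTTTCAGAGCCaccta
HIST1H2BN: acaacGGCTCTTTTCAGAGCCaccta
HIST4H4: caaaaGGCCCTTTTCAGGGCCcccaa
HIST1H4J: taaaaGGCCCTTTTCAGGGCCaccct
H2AFX: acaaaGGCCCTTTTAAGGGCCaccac
The element was found in 18 of the 22 replication-dependent histone genes passing the expression filter whose transcript model runs past the coding sequence (81.8%). It was found in 13 of 6948 other genes passing the filter (0.187%) and, among 12 replacement histone genes, only in H2AFX. The models of another 19 histone genes hold the coding sequence alone, so the element could not be looked for in them.

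The 250 bases before the start of 3 histone genes are shown because the families differ in the elements their promoters hold. They come from RefSeq (GRCh38.p14). Capitals mark the CCAAT box with its 5 letters, the TATA box as TATAAA, the box of H1 promoters as AAACACA and the octamer as ATTTGCAT, on either strand, and overlapping matches run together.
HIST1H2AG (RefSeq H2AC11, chr6:27132793-27133042, plus strand): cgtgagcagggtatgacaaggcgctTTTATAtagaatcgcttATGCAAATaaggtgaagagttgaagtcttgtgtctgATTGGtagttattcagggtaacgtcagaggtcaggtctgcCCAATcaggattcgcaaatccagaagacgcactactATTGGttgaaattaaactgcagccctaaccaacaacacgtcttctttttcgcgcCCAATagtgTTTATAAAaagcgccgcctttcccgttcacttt
HIST1H1E (RefSeq H1-4, chr6:26156079-26156328, plus strand): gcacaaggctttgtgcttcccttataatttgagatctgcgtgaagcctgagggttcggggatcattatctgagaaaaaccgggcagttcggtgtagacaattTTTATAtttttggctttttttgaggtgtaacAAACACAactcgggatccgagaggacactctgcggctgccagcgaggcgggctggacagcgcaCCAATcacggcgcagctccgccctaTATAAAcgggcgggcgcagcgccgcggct
HIST1H4D (RefSeq H4C4, chr6:26189113-26189362, minus strand): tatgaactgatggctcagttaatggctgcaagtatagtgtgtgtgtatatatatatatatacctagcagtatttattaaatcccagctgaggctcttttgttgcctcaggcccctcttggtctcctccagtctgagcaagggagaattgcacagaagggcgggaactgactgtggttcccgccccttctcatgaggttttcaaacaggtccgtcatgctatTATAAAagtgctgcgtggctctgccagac
Promoters were matched for 36 of the 41 replication-dependent histone genes passing the filter. CCAAT was present in 29 of them and in none of the 7 H4 promoters, against 33.0% of 27305 promoters in the table. TATAAA was present in 27 (11.1% of all promoters), ATTTGCAT in 15, of which 8 were H2A and 6 H2B (1.66%), and AAACACA in both H1 promoters and no other (4.95%). HIST1H2AG lies 242 bp from the divergent HIST1H2BJ, so both genes share the sequence shown.

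The libraries differed in depth, with 18112861 and 32906297 reads on the sense strand of genes in DMSO cultures 1 and 2 and 27364324 in C1-14. Levels are given as RPKM, the authors' reads scaled to gene length and to mapped reads. A gene was counted as higher or lower when its RPKM in C1-14 differed by at least 1.4-fold from the mean of both DMSO cultures, among genes over 300 bp with an RPKM above 0.5 when C1-14 and the DMSO mean were averaged. The 2 DMSO cultures were not alike: of 7825 genes passing the filter on DMSO alone, culture 2 exceeded culture 1 by 1.4-fold or more in 222 (2.84%) and fell below it by as much in 1275 (16.3%). For that reason each result is also set against each DMSO culture, and the text says whether the C1-14 value lay outside both.

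Of 7784 genes passing the filter, 289 were at least 1.4-fold higher with C1-14 than the DMSO mean (3.71%) and 79 at least 1.4-fold lower (1.01%). With DMSO culture 1 as the only control 323 were higher and 584 lower, and with culture 2 as the only control 575 were higher and 16 lower, so the balance of the counts depended on the DMSO culture. Against each DMSO culture alone, 154 genes were 1.4-fold or more higher (1.98%) and 7 lower (0.0899%). In all, 2118 genes lay above both DMSO cultures (27.2%), 1683 below both (21.6%) and 3983 between them. The edgeR quasi-likelihood test, fitted to 14431 genes, called 16 genes higher (0.111%) and 1 lower (0.00693%) at an adjusted p under 0.05. With the 2 DMSO cultures leaving 1 residual degree of freedom, it assumes that the lone C1-14 culture varied as the DMSO cultures did. Its p-values therefore have no replicate check of the treatment and rest on the spread between those 2 cultures. The fit took that spread as shared across genes, so a gene's own difference between the DMSO cultures did not enter its p-value or SE. The DESeq2 Wald test called HFM1 and ANKRD30BL higher and none lower, with 77 higher and 6 lower at an unadjusted p under 0.05, against 162 and 43 with edgeR.

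GSTO1 itself had nearly the same level in all 3 cultures. Its RPKM was 3.51 and 3.72 in DMSO cultures 1 and 2 and 3.82 with C1-14, which is 1.06-fold the DMSO mean (edgeR adjusted p = 1.00), and the neighbouring GSTO2 had 3.81, 3.90 and 3.85. For GSTO1 the exact 95% counting interval of the ratio to the pooled DMSO reads was 0.988 to 1.11. Such intervals cover counting error only.

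**Figure D1:**
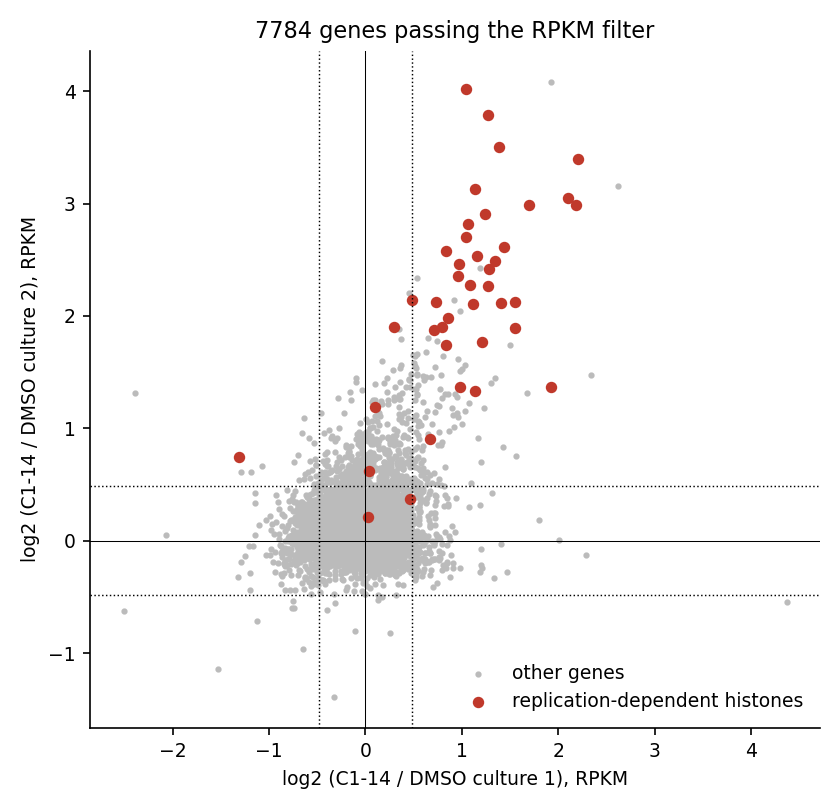
Each point is 1 of the 7784 genes passing the filter, with the log2 ratio of its RPKM in C1-14 to DMSO culture 1 on the x axis and to DMSO culture 2 on the y axis, and dotted lines at 1.4-fold. The C1-14 value enters both axes. Replication-dependent histones (red) lie above 0 on both axes with the exception of HIST1H4J, and 35 of the 41 lie past 1.4-fold on both.

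Most genes coding for core and linker histones were transcribed at a higher level with C1-14 than in either DMSO culture. Of 73 rows for replication-dependent histones over 300 bp, 52 had reads in C1-14 or DMSO, of which 49 were above both DMSO cultures and none below both. The filter was passed by 41, of which 37 were at least 1.4-fold higher and 1 lower than the DMSO mean, and 40 lay above both cultures. When the filter was applied to the DMSO cultures alone, 39 of 40 genes lay above both. The median log2 fold change of the 41 genes was 1.56, with 1.08 against DMSO culture 1 and 2.14 against culture 2, while the median of all 7784 genes was 0.01. The edgeR test, which covered 41 of the 73 rows, called 7 histone genes, and 34 including these 7 had an unadjusted p under 0.05, all higher, out of 162 such genes in total.

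Summed over the list, histone RPKM was 304 in DMSO culture 1, 153 in culture 2 and 635 with C1-14. The DMSO cultures thus differed by about as much from each other as C1-14 differed from culture 1. Scaled to mapped reads, the C1-14 sum of counts was 1.99-fold that of DMSO culture 1 and 3.97-fold that of culture 2. In the other 3 cultures the summed RPKM was 161.5 (C1-27, 4 h), 148 (C1-27, 24 h) and 276 (GSTO1 siRNA). The C1-14 culture was therefore the highest of the 6, and the 5 others ranged from 148 to 304.

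Linker histone H1, which binds the DNA between nucleosomes, had 2 genes passing the filter, and both rose. HIST1H1E had RPKM values of 20.04 and 5.04 in DMSO cultures 1 and 2 and 44.2 with C1-14, a log2 fold change of 1.87 ± 0.35 (SE, edgeR adjusted p = 0.000291). HIST1H1C had 34.8, 13.2 and 67.8 (log2 fold change 1.54 ± 0.30, edgeR adjusted p = 0.000823). In both genes C1-14 lay above both DMSO cultures, whose ratio of culture 2 to culture 1 was 0.252 in HIST1H1E and 0.380 in HIST1H1C.

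All 12 H2A genes passing the filter were at least 1.4-fold higher and above both DMSO cultures, with a median log2 fold change of 1.73. HIST1H2AG (hg19 chr6:27100817-27101314, plus strand), in the large cluster on chromosome 6, had the largest fold of any histone. Its RPKM was 4.38 and 1.92 in DMSO and 20.2 with C1-14, from 51 and 39 reads against 348, which is 4.60-fold culture 1 and 10.5-fold culture 2 (log2 fold change 2.74 ± 0.50, edgeR adjusted p = 0.000156). HIST1H2AI rose from 2.95 and 1.53 to 12.7 (edgeR adjusted p = 0.00465) and HIST1H2AH from 8.92 and 3.95 to 24.1 (edgeR adjusted p = 0.0258). The DMSO and C1-14 values did not overlap in any of these 3 genes, and HIST1H2AD (6.20, 9.14 and 23.6) was the only H2A gene that was higher in DMSO culture 2 than in culture 1.

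H2B, H3 and H4 genes were also mostly higher, with smaller median folds than H2A. Of 12 H2B genes 11 were at least 1.4-fold higher (median log2 fold change 1.495), and the exception, HIST2H2BC, had RPKM values of 1.45, 1.28 and 1.47. Of 6 H3 genes 5 were higher (median 1.45), with the highest fold in HIST2H3D at 1.87, 0.590 and 4.42, and the exception was HIST1H3D at 3.53, 2.37 and 3.63. No H2B or H3 gene passed the edgeR test after adjustment, while 12 of 13 H2B genes tested (one of them, HIST2H2BF, under the RPKM filter) and 5 of 7 H3 genes tested had an unadjusted p under 0.05.

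Of 9 H4 genes 7 were higher and 1 lower (median 1.32). HIST1H4D rose from RPKM values of 6.52 and 2.67 to 21.1 (log2 fold change 2.26 ± 0.51, edgeR adjusted p = 0.0127) and HIST1H4C from 20.1 and 7.73 to 44.8 (log2 fold change 1.74 ± 0.41, edgeR adjusted p = 0.0246). HIST4H4, the only replication-dependent member of the list on chromosome 12, had 1.25, 0.714 and 5.67, a 5.79-fold difference with an edgeR adjusted p of 0.121. HIST1H4J, the lower one, had only 11, 4.62 and 6.56 reads and lay between the DMSO cultures. Genes outside the chromosome 6 cluster were thus among those above both DMSO cultures. Histone genes are near-identical within a family and some of their deposited counts are not whole numbers, so the reads of single copies may have been divided among them.

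**Figure D2:**
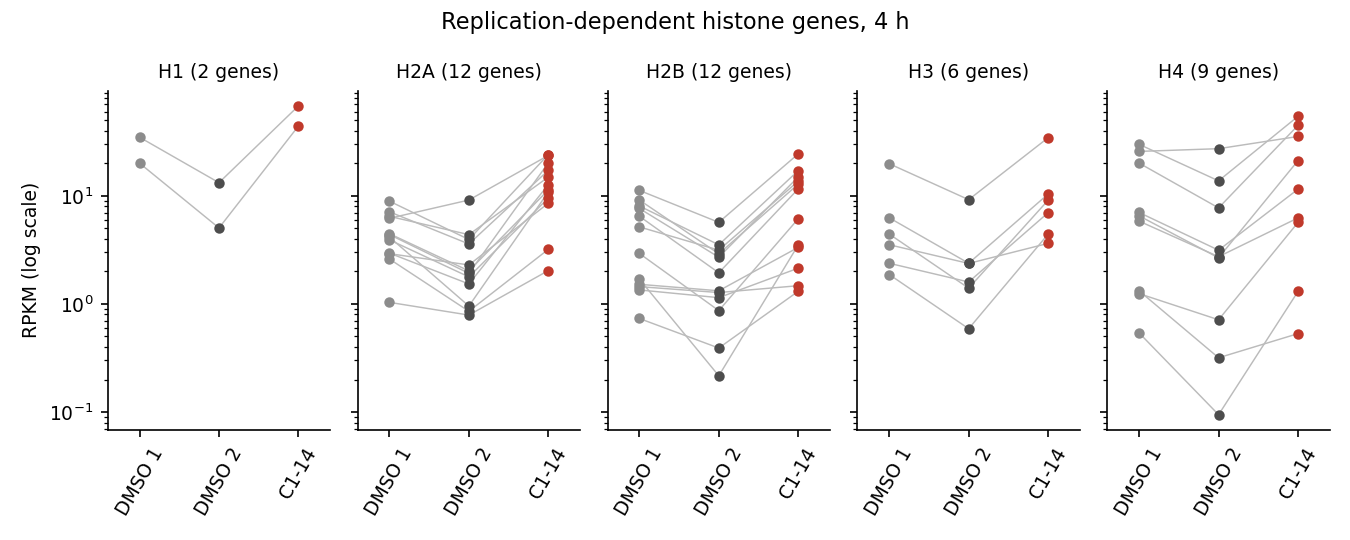
RPKM (log scale) of the 41 replication-dependent histone genes passing the filter, in panels by family, with a grey line joining the values of a gene in DMSO culture 1, DMSO culture 2 and C1-14. The C1-14 point is the highest of its line in 40 genes, the exception being HIST1H4J among the H4 genes, and DMSO culture 2 is mostly the lowest.

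Most genes with and most without an identified stem-loop were higher. Of the 18 genes in which the element was found, 15 were at least 1.4-fold higher, with folds from 0.648 to 6.40 and a median of 2.62. Of the other 23 genes, 19 of them with models that stop at the coding sequence, 22 were higher, with a median fold of 3.22.

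Replacement histones had a smaller median fold. Of 10 genes passing the filter 5 were at least 1.4-fold higher, 6 lay above both DMSO cultures and 1 below both, and the median log2 fold change was 0.54. The largest difference was in H2AFX, which encodes the H2A variant phosphorylated at DNA breaks and whose transcript holds the stem-loop shown above. It had RPKM values of 1.65, 1.21 and 3.00, a fold of 2.09 (edgeR adjusted p = 1.00, unadjusted p = 0.033). H2AFZ, coding for H2A.Z, had 13.4, 8.56 and 20.2 (edgeR adjusted p = 0.526), whereas the macroH2A gene H2AFY (3.49, 2.89 and 2.96) lay between the DMSO cultures. Of all genes passing the filter, 3.71% were at least 1.4-fold higher, 27.2% lay above both DMSO cultures and 21.6% below both. The 5 higher replacement histone genes span 1507 to 3346 bp and the others 8574 to 65507 bp. Among all genes of 1 to 3 kb passing the filter, 25.2% were at least 1.4-fold higher and 51.2% lay above both. Among those of 3 to 10 kb, 6.07% were higher and 36.5% lay above both. The part of gene size in the replacement histone values was not tested.

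The factors that drive histone transcription and process histone pre-mRNA stayed within 1.4-fold of the DMSO mean. None of 23 such genes was 1.4-fold higher or lower, 7 lay above both DMSO cultures, 3 below both, and the median log2 fold change was 0.00. Shares over all genes passing the filter were 27.2% above both and 21.6% below both. The extremes were SSRP1, a FACT subunit, at RPKM values of 4.53, 2.70 and 5.00 (1.38-fold) and ZNF473, a subunit of the U7 complex, at 0.947, 0.628 and 0.636 (0.807-fold).

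DNA replication and S phase genes, which are transcribed as histones are made, were within the same limits. Of 49 genes none was past 1.4-fold, 13 lay above both DMSO cultures and 8 below both, and the median log2 fold change was -0.02. Among all genes passing the filter, 27.2% lay above both and 21.6% below both. The range ran from FEN1, the flap endonuclease, at 4.87, 4.46 and 5.69 (1.22-fold) to the transcription factor E2F1 at 1.62, 0.930 and 1.01 (0.796-fold). PCNA, the sliding clamp, had 5.37, 6.53 and 7.12, and RRM2, a ribonucleotide reductase subunit, 13.9, 12.8 and 16.1.

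More genes of G2 and mitosis lay above both DMSO cultures than below both. None of 30 was past 1.4-fold, but 17 lay above both DMSO cultures and none below both, and the median log2 fold change was 0.15. Of all genes passing the filter, 27.2% lay above both and 21.6% below both. MKI67, the proliferation marker Ki-67, had 9.03, 8.97 and 11.4 (1.26-fold), and KIF20A, a mitotic kinesin, 1.81, 1.91 and 2.50 (1.34-fold). AURKB, the Aurora B kinase, lay between the DMSO cultures at 3.77, 3.22 and 3.39. Other lists also had more genes above both than below both, such as heat shock (12 and 0 of 18) and p53 targets (10 and 2 of 20). Host genes of small nucleolar RNAs (2 and 6 of 15) and glutathione transferases (2 and 3 of 7) had fewer above both than below both.

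RPPH1, the RNase P RNA gene (hg19 chr14:20811230-20811570, minus strand), had the highest RPKM and one of the largest folds among the genes called. Its reads were 1372 and 536 in DMSO cultures 1 and 2 and 7729 with C1-14, or RPKM values of 172, 38.5 and 654. C1-14 was 3.801-fold DMSO culture 1 and 17.0-fold culture 2, and the log2 fold change was 2.68 ± 0.24 (edgeR adjusted p = 6.72e-26). The DMSO cultures themselves differed by a ratio of 0.224, and the DESeq2 adjusted p was 1.00. PARP2, which starts 203 bp away on the other strand, had 624, 962 and 955 reads. In RPKM these are 1.87, 1.65 and 1.93, so its C1-14 value lay slightly above both DMSO cultures.

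Other small structured RNA genes went partly the same way. Of 10 such genes passing the filter 5 were at least 1.4-fold higher, 4 of them against each DMSO culture, and 1 was lower, with a median log2 fold change of 0.56. Their median size was 366 bp, and 6 lay above both DMSO cultures and none below both. In the 51 genes of 0.3 to 1 kb that are not replication-dependent histones, 33.3% were at least 1.4-fold higher. In that class 41.2% lay above both and 37.25% below both. SCARNA10 and SCARNA7, small RNAs of Cajal bodies, had RPKM values of 8.50, 3.602 and 19.4 and of 10.3, 9.13 and 20.04. SCARNA17 lay between the cultures at 2.70, 0.980 and 1.66, and RNY5, the lower one, rested on about 1 read in each culture. Host genes of small nucleolar RNAs were not higher as a group, since 1 of 15 was past 1.4-fold (SNHG9, 0.684, 0.642 and 1.30), 2 lay above both DMSO cultures and 6 below both, and the median log2 fold change was -0.05. SNHG5 (56.1, 43.7 and 40.4) was the lowest of them at 0.810-fold. Over all genes passing the filter the shares above both and below both DMSO cultures were 27.2% and 21.6%.

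HFM1, ANKRD30BL and PDE3A had few reads for their size in DMSO and several times more with C1-14. HFM1 codes for a DNA helicase of meiotic recombination and PDE3A for a cyclic nucleotide phosphodiesterase. HFM1 (hg19 chr1:91726323-91870426, minus strand) had 603 and 729 reads in DMSO and 5513 with C1-14 over its 144104 bp, 7.29-fold in RPKM (log2 fold change 2.89 ± 0.25, edgeR adjusted p = 2.27e-26), and 0, 2 and 1 reads on the antisense strand. ANKRD30BL had 20, 19 and 524 reads, a ratio to the pooled DMSO reads of 24.9 (exact 95% counting interval 18.0 to 35.4, log2 fold change 4.58 ± 0.52, edgeR adjusted p = 6.17e-15). PDE3A had 84, 54 and 338 reads over 314863 bp (log2 fold change 2.05 ± 0.48, edgeR adjusted p = 0.0180).

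The C1-14 value lay far above both DMSO cultures in all 3 genes. At RPKM values of 0.137 and 0.0310 with C1-14, ANKRD30BL and PDE3A remained under the RPKM filter. The deposited values are 1 number per gene and strand and do not show where in a gene, exon or intron, its reads fell.

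**Figure D3:**
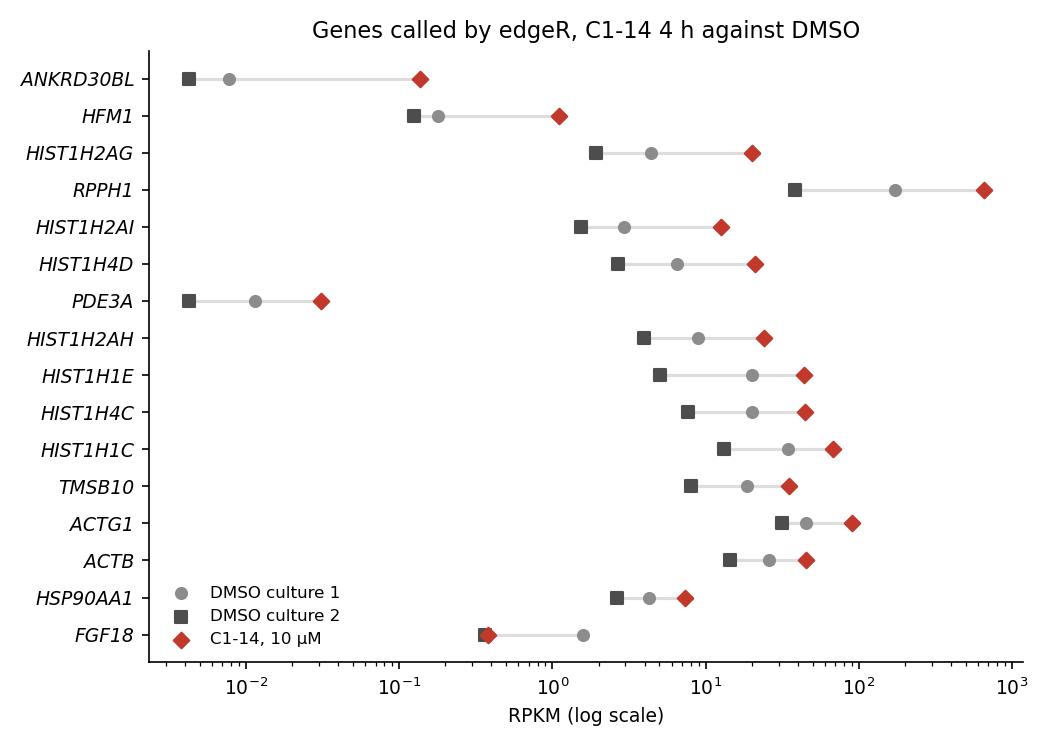
RPKM (log scale) of 16 of the 17 genes with an edgeR adjusted p under 0.05, in DMSO culture 1 (circle), DMSO culture 2 (square) and C1-14 (diamond), ordered by fold against the DMSO mean. The C1-14 value is to the right of both DMSO values in 15 genes, DMSO culture 2 is the lowest of the 3 in all 15, and for FGF18 the C1-14 value nearly coincides with that of DMSO culture 2.

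Beyond histones, the genes called higher include actins, an actin-binding peptide and a chaperone. ACTG1 and ACTB, the cytoplasmic actins, had RPKM values of 45.0, 31.4 and 90.2 (log2 fold change 1.26 ± 0.24, edgeR adjusted p = 0.000246) and of 25.8, 14.4 and 45.2 (1.20 ± 0.23, edgeR adjusted p = 0.000729). TMSB10, which sequesters actin monomers, had 18.6, 8.003 and 35.2 (edgeR adjusted p = 0.00821). These 3 genes span 1037 to 3454 bp. HSP90AA1, coding for the inducible HSP90 over 59012 bp, had 4.28, 2.66 and 7.38 (log2 fold change 1.12 ± 0.25, edgeR adjusted p = 0.0133). The C1-14 value exceeded the higher DMSO value by 2.00-fold in ACTG1 and 1.72-fold in HSP90AA1.

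Among the 15 genes with the largest fold against the nearer DMSO culture were also 3 that are neither histones nor called. ISG15, an interferon-induced ubiquitin-like modifier, had 6, 19 and 45 reads, BEX2 11, 16.2 and 46.0, and RNF181, a ubiquitin ligase, 15.4, 25 and 58. All 3, as well as HFM1, passed the RPKM filter only through their C1-14 value, so their place among the largest folds follows in part from how they were selected. Each of the 3 had an edgeR adjusted p of 1.00.

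Ribosomal protein genes, also short and strongly transcribed, had a small median fold. Of 80 genes 13 were at least 1.4-fold higher and none lower, and 53 lay above both DMSO cultures and 1 below both. Among the 1368 genes of 3 to 10 kb, the class of their median size, 6.07% were at least 1.4-fold higher. In that class 36.5% lay above both and 14.25% below both. The median log2 fold change was 0.27, with 0.09 against culture 1 and 0.49 against culture 2. RPL8 had the highest fold, at RPKM values of 17.0, 8.82 and 24.6 (1.91-fold, edgeR adjusted p = 0.160), and RPS29 the lowest, 0.872, at 19.6, 14.96 and 15.1. Of 74 mitochondrial ribosomal protein genes 7 were higher and none lower, with a median of 0.09, and MRPL34 had the largest fold, 2.30, from 0.836, 0.868 and 1.96 (edgeR adjusted p = 1.00).

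Median ratios went with gene size where DMSO culture 2 entered them, beside C1-14 or beside culture 1, and not between C1-14 and culture 1. Of the 154 genes at least 1.4-fold higher against each DMSO culture, 94 were 3 kb or shorter (61.0%), against 5.92% of all genes passing the filter, and 35 of the 154 were histones. Genes of up to 3 kb took 3.09% of sense reads with C1-14 and 2.48% and 2.50% in DMSO. With histones left out, the median log2 ratio of C1-14 to DMSO culture 2 fell from 0.37 in 51 genes of 0.3 to 1 kb to -0.14 in 133 genes over 300 kb. Against DMSO culture 1 the same medians were -0.04 and -0.01, and between DMSO culture 2 and culture 1 they were -0.30 and 0.14.

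The histones were above genes of their own size. The 51 other genes of 0.3 to 1 kb had a median log2 fold change of 0.13, with 17 at least 1.4-fold higher and 10 lower, against 1.56 for the histones. In that class 21 lay above both DMSO cultures and 19 below both. The part of gene size in the histone values was not tested.

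**Figure D4:**
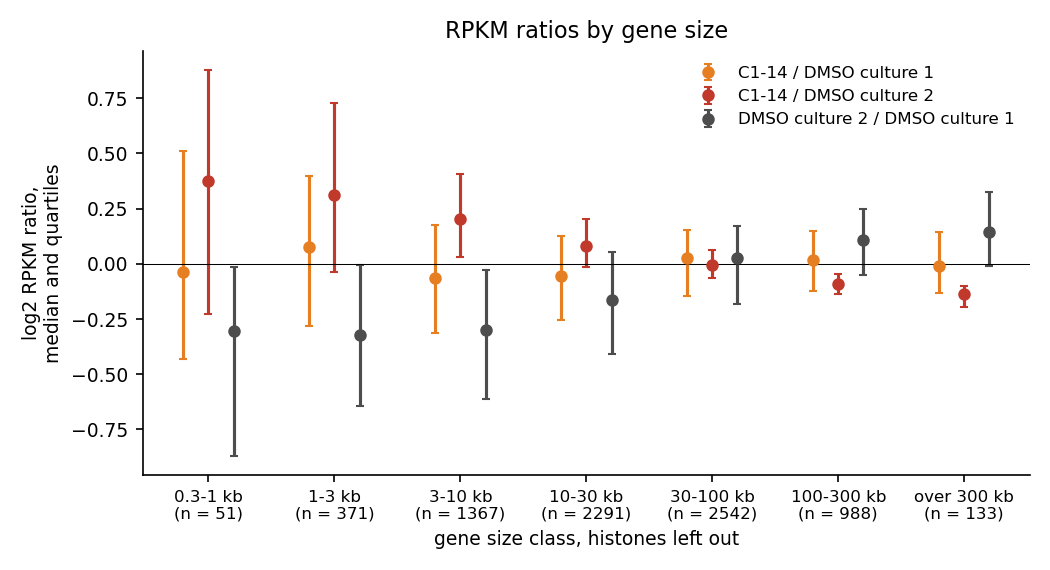
Median (point) and quartiles (bars) of the log2 RPKM ratio in 7 gene size classes without histones, for C1-14 over DMSO culture 1, C1-14 over DMSO culture 2 and DMSO culture 2 over culture 1. The ratios to DMSO culture 2 go from 0.37 in the shortest class to -0.14 in the longest, whereas those to DMSO culture 1 stay between -0.06 and 0.08.

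Few genes were lower than both DMSO cultures by 1.4-fold, although 584 were so against culture 1 alone and 16 against culture 2 alone. FGF18, a fibroblast growth factor, was the only one called by edgeR, with a log2 fold change of -1.32 ± 0.30 (adjusted p = 0.0133). Its reads were 1403 and 564 in DMSO cultures 1 and 2 and 496 with C1-14, so that in RPKM (1.58, 0.364 and 0.377) C1-14 lay between the DMSO cultures and close to culture 2. Without DMSO culture 1 its log2 fold change was 0.04.

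The 7 genes lower by 1.4-fold against each DMSO culture were TICAM2, BACE1-AS, LOC646903, ZNF670-ZNF695, P2RX5-TAX1BP3, TYRO3P and AURKAPS1. Several are read-through genes, antisense RNAs or pseudogenes whose rows overlap or resemble other genes. AURKAPS1, a pseudogene of Aurora kinase A, had the most reads, 155, 233 and 136 (RPKM 4.32, 3.72 and 2.56), and BACE1-AS had 22, 29 and 15. Each of the 6 that edgeR tested had an adjusted p of 1.00.

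The oxidative stress genes named by the study for GSTO1 inhibition were near their DMSO values. OSGIN1, a growth inhibitor induced by oxidative stress, had RPKM values of 0.359 and 0.368 in DMSO and 0.409 with C1-14, from 186 reads. SLC7A11, the cystine transporter, had 0.562, 0.540 and 0.603, and HMOX1, haem oxygenase, 0.338, 0.310 and 0.287. DNAJB9, an endoplasmic reticulum co-chaperone, had 0.569, 0.557 and 0.638. OSGIN1, SLC7A11 and DNAJB9 lay above both DMSO cultures by at most 1.15-fold, and HMOX1 lay below both. OSGIN1 and HMOX1 were under the RPKM filter.

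NRF2 is the transcription factor that answers electrophiles, and of 19 of its target genes passing the filter 2 were at least 1.4-fold higher, none was lower, and the median log2 fold change was 0.08. The 2 were the ferritin subunits FTL (11.4, 5.49 and 14.6) and FTH1 (10.4, 7.49 and 15.2), which store iron and are encoded by genes of 1571 and 3376 bp. FTH1 was above the higher DMSO value by 1.46-fold (edgeR adjusted p = 0.661). NQO1, a quinone reductase, had 1.73, 1.04 and 1.79, and ABCC2, an efflux pump, had 0.691, 0.658 and 0.595, below both DMSO cultures. In the whole list 9 genes lay above both DMSO cultures and 2 below both. Across the 7784 genes passing the filter, 3.71% were at least 1.4-fold higher, 1.01% lower, 27.2% above both and 21.6% below both.

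Targets of ATF4, which drives the response to amino acid shortage, were not past 1.4-fold in any of 18 genes (median 0.03), and TRIB3 (0.865, 0.564 and 0.567) and SLC7A1 (2.61, 1.98 and 1.98) matched DMSO culture 2. CHAC1, a glutathione-degrading enzyme, had 6, 6 and 3 reads, too few to detect a difference. Of 22 chaperones and protein disulfide isomerases of the endoplasmic reticulum 3 were higher and 1 lower (median 0.13). Above both DMSO cultures lay 13 of them, and 3 lay below both. For all genes passing the filter the shares were 3.71% higher, 1.01% lower, 27.2% above both and 21.6% below both. HSPA5 (BiP) had 8.95, 4.80 and 11.5, CALR (calreticulin) 7.48, 3.23 and 8.53 and HSP90B1 10.2, 7.53 and 12.7, each above both DMSO cultures by 1.14-fold to 1.28-fold over culture 1 and none called by edgeR (unadjusted p = 0.0018, 0.0094 and 0.029). SDF2L1, the lower one, had 1.52, 0.515 and 0.691 and lay between the DMSO cultures.

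Of 18 heat shock genes 3 were at least 1.4-fold higher and none lower (median 0.17), while 12 lay above both DMSO cultures and none below both. The shares over all genes passing the filter were 3.71% higher, 1.01% lower, 27.2% above both and 21.6% below both. HSP90AA1 is described above, HSPB1, the small heat shock protein HSP27, had 1.82, 1.16 and 3.54 (2.38-fold, edgeR adjusted p = 1.00), and HSP90AB1, the constitutive HSP90, had 53.03, 36.0 and 65.1 (1.46-fold). BAG3, a co-chaperone that HSF1 induces, had 1.398, 1.32 and 1.34 and lay between the DMSO cultures.

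Responses to xenobiotics and metals were small. Only 3 genes of the aryl hydrocarbon receptor list passed the filter and none was past 1.4-fold, with TIPARP at 1.79, 2.09 and 2.38 (median of the list 0.02). Of 5 metallothionein and zinc export genes 2 were higher, MT1E (4.81, 4.19 and 6.96) and MT2A (7.34, 7.35 and 10.6), both at least 1.4-fold above each DMSO culture and neither called by edgeR (adjusted p = 1.00). SLC30A1, the zinc exporter, equalled DMSO culture 2 (1.27, 1.97 and 1.98). Of 7 glutathione transferase genes passing the filter, GSTP1 was higher (2.88, 1.79 and 3.40, 1.45-fold) and none was lower, with a median of 0.00. Among all genes passing the filter 3.71% were at least 1.4-fold higher and 1.01% lower, and among those of 1 to 3 kb 25.2% were higher.

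Inflammatory and growth signals showed few differences. None of 9 NF-κB targets was past 1.4-fold (median -0.01), with NFKBIA at 1.88, 2.25 and 2.42. Of 22 immediate-early genes 2 were higher (3.71% of all genes passing the filter) and none lower (1.01%), with a median of 0.06. In that list 10 lay above both DMSO cultures (27.2% of all genes) and 6 below both (21.6%). CTGF had RPKM values of 0.441, 0.821 and 1.10, or 2.49-fold culture 1 and 1.34-fold culture 2. JUND had 1.10, 0.988 and 1.48. Their reads were 33.0, 107 and 122 for CTGF and 48.2, 75.4 and 95.6 for JUND. DUSP1, a phosphatase of the MAP kinases, was lower than both DMSO cultures at RPKM values of 1.81, 1.49 and 1.19 (0.718-fold).

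Of 20 p53 targets 1 was higher and 2 lower (median 0.17), while 10 lay above both DMSO cultures and 2 below both. CDKN1A, coding for the cell cycle inhibitor p21, had RPKM values of 1.18, 1.32 and 1.78 (1.42-fold, edgeR adjusted p = 1.00). FDXR (1.45, 0.624 and 0.727) and PLK3 (2.31, 1.30 and 1.26) were below the DMSO mean, with DMSO culture 1 the highest of the 3 in both. Of 17 genes of cholesterol synthesis and uptake IDI1 was higher (0.874, 0.840 and 1.24), none was lower, and the median was 0.11. In that list 10 lay above both DMSO cultures and 2 below both. The shares for all genes passing the filter were 3.71% higher, 1.01% lower, 27.2% above both and 21.6% below both.

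Among other genes named by the study, CCND1, coding for cyclin D1, had RPKM values of 6.55, 4.62 and 8.37 (1.499-fold, edgeR adjusted p = 1.00, unadjusted p = 0.012). CCNE1 had 1.02, 0.854 and 1.02, and MYC 22.8, 20.2 and 19.0. THBS1 and CYR61, secreted matrix proteins, had 0.694, 2.13 and 2.42 and 4.62, 8.33 and 8.80. In THBS1 DMSO culture 2 was 3.07-fold culture 1, and C1-14 was 3.48-fold culture 1 and 1.14-fold culture 2. F3 (13.4, 19.6 and 17.4), DKK1 (36.7, 46.8 and 46.4), BMP4 (1.93, 2.91 and 2.66), CAV1 (7.30, 15.1 and 12.6) and CAV2 (7.13, 12.1 and 11.7) all lay between the DMSO cultures.

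**Figure D5:**
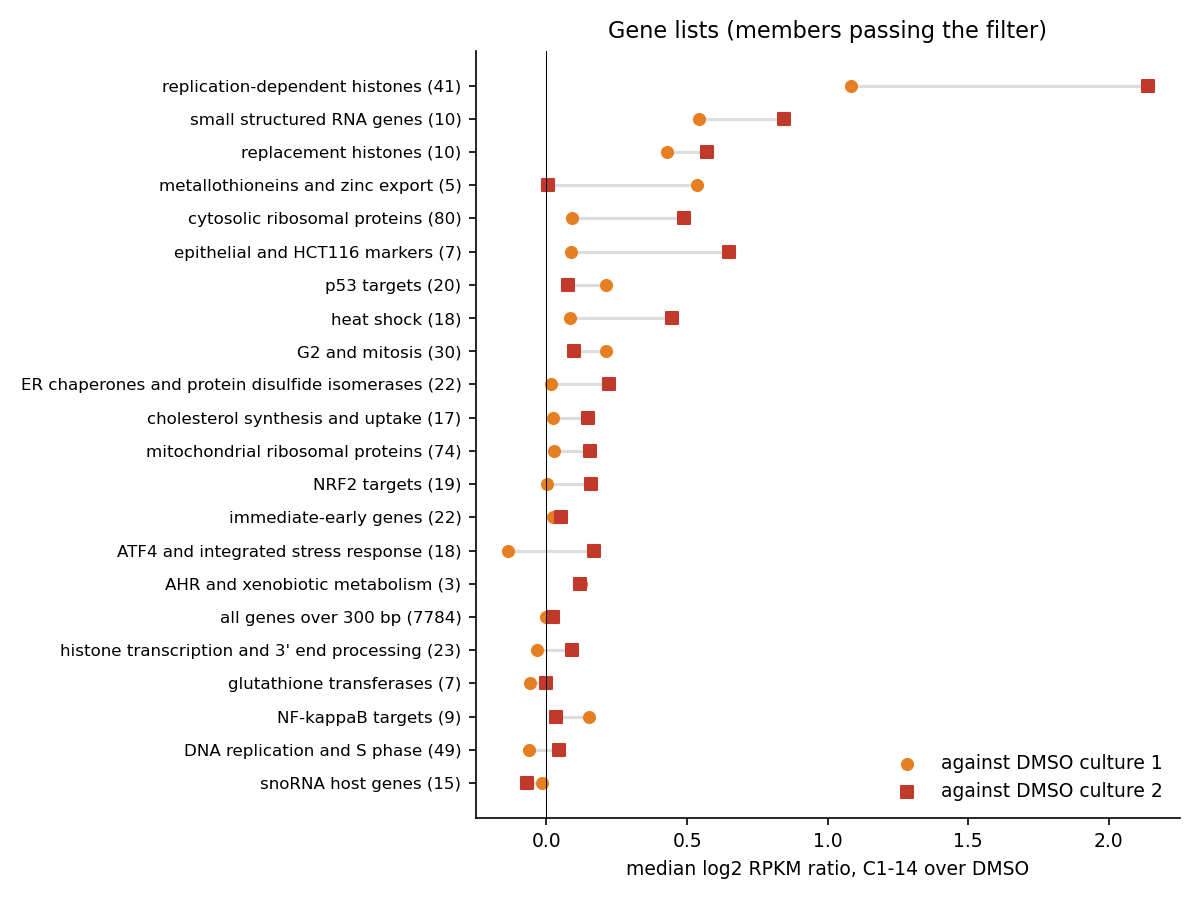
Median log2 RPKM ratio of C1-14 to DMSO culture 1 (circle) and to DMSO culture 2 (square) for each gene list, with the number of members passing the filter in brackets and all 7784 genes as 1 entry. Replication-dependent histones are at 1.08 and 2.14, and no other list exceeds 0.54 against culture 1 or 0.84 against culture 2.

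C1-27 was given at 1 µM and C1-14 at 10 µM, so the values at 4 h are set side by side and were not compared. OSGIN1 had an RPKM of 1.33 with C1-27 and 0.409 with C1-14, SLC7A11 1.19 and 0.603, and HMOX1 0.727 and 0.287. HIST1H2AG had 2.09 and 20.2, RPPH1 56.7 and 654, and ACTB 15.1 and 45.2. HFM1 had 664 reads with C1-27 and 5513 with C1-14. For these last 4 genes DMSO culture 1 had 4.38, 172 and 25.8 RPKM and 603 reads, and culture 2 had 1.92, 38.5 and 14.4 RPKM and 729 reads. With GSTO1 siRNA for 24 h they had 4.82, 293 and 17.7 RPKM and 1100 reads. In RPKM HFM1 was 0.291 with the siRNA, 0.179 and 0.124 in DMSO cultures 1 and 2 and 1.10 with C1-14.

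The labelled cell type was checked against its markers. Of 15 epithelial markers 14 had reads and 7 passed the filter, including EPCAM (3.66, 3.06 and 3.89) and KRT8 (9.60, 5.81 and 10.5). KRT18 was higher with C1-14 (8.18, 4.81 and 11.9, 1.83-fold, edgeR adjusted p = 0.635), and the median of the 7 was 0.21. CEACAM6 had no reads. None of 20 markers of other cell types passed the filter, but 14 had reads in C1-14 or DMSO. When the filter was applied to the DMSO cultures alone, 1 of the 20 passed. HBB, CD3E, MYH6, GFAP and COL1A2 are named from those at 0 in all 3 cultures, whereas 6 of the 20 had enough reads for the edgeR test. The summed RPKM of that list was 1.12, 0.823 and 0.822.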

How the data were processed

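Bromouridine-labelled RNA of HCT116 cells was sequenced from 6 cultures, of which 3 are analysed here. The authors deposited, per gene and strand, an estimated count of reads that is often not whole, a signal equal to that count divided by gene length, and an RPKM value. The submitters' processing notes name CASAVA 1.8.2, Bowtie 0.12.8, TopHat 1.4.1, bedtools 2.16.2 and build hg19; the gene annotation is not given in the sources used here. The reads behind the RPKM values numbered 23388425 and 40788845 in DMSO and 34665377 in C1-14, and all columns used belong to a labelled sample.

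Sense rows of genes over 300 bp (21471 of 22984) were used, and 48 ambiguous rows per library, with 1.84% to 2.00% of reads, were left out. Folds were RPKM ratios with no pseudocount among genes with a mean RPKM above 0.5. Counts were rounded and fitted over all 6 libraries with the quasi-likelihood test of edgeR 4.0.16 (R 4.3.3), for genes with at least 10 reads in at least 2 libraries, with Benjamini-Hochberg adjustment, and the script was tested on simulated data. DESeq2 1.42.0, other scalings, filters and pseudocounts, and leaving out each DMSO culture were the alternatives. Ratios of reads have exact 95% binomial intervals. Python 3.11.15, pandas 2.3.3, numpy 2.4.6, scipy 1.17.1 and matplotlib 3.10.9 were used.

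The comparison and the gene lists were chosen with earlier results of these data known. Named were GSTO1 and GSTO2, genes with an adjusted p under 0.05 and their neighbours, the 15 genes of each direction with the largest fold against the nearer DMSO culture, up to 5 extreme members of each list, and genes the study's text names. A few further list members are given as examples chosen after their values were seen, and 3 genes that the rule or the lists hold are not reported here. Replicates are separate labelled cultures, and nothing in the labels says whether they were grown independently.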

Additional observations from a re-analysis of the deposited data

Results flagged for a closer look

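The antisense strand of genes was not part of the comparison, and it differed in C1-14. The antisense strand of UNC45B (hg19 chr17:33474836-33516364), a gene for a muscle myosin chaperone, had 10961 RPM (reads scaled to the size of the library) with C1-14 against 654 and 676 in DMSO cultures 1 and 2. It had 792 with C1-27 for 4 h, 583 with C1-27 for 24 h and 1516 with GSTO1 siRNA. Reads on the antisense strand made up 3.96% of those on genes with C1-14 and 3.12% and 2.85% in DMSO. Without UNC45B and BTRC the shares were 2.63%, 3.04% and 2.77%, so that C1-14 was then the lowest of the 3. No test was made of either value, and the files do not show where in UNC45B the reads fell.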

How the results depend on the processing

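No paired analysis was possible because only DMSO has numbered cultures. Leaving out each DMSO culture gave 323 to 575 genes at least 1.4-fold higher in place of 289, and 16 to 584 lower in place of 79, the 575 and 16 being without culture 1 and the 323 and 584 without culture 2. Higher genes numbered 192 with 0.5 RPKM added and 1089 with no RPKM filter. Lower genes numbered 47 with 0.1 RPKM added, 13 with 0.5 RPKM added, 30 with mean RPKM over 1 and 1384 with no RPKM filter. DESeq2 called 2 genes higher and 0 lower in place of 16 and 1 with edgeR, and the robust edgeR fit called 14 and 0. Leaving out each DMSO culture put the log2 fold change of FGF18 between -2.07 and 0.050 in RPKM and between -2.01 and 0.040 with edgeR, that of HIST1H4J between -1.31 and 0.74, RNY5 between -0.90 and 0.061, SDF2L1 between -1.14 and 0.42 and FDXR between -0.99 and 0.22, each positive without culture 1, which was the higher of the DMSO cultures for all 5. The histone median stayed between 1.08 and 2.14. Among alternatives for list medians, 147 moved by less than the spread and 21 by more. Reversal was looked for only in lists whose main median was at least 1.4-fold from DMSO, and none of those reversed. Smaller medians could change sign with the DMSO culture, as for ATF4 targets, at 0.03 against the mean and -0.14 against culture 1. The single C1-14 culture and the spread between the DMSO cultures limit all p-values.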

Other observations

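BTRC, coding for a subunit of a ubiquitin ligase, had an antisense level of 11.4 and 35.7 RPM in DMSO and 284 with C1-14, and PPEF2 had 1.11, 1.35 and 8.48. MAB21L3 and ODF2L, among the antisense rows with the most reads added, had ratios of 1.26 and 1.11 to the DMSO mean.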
